A study of Mus musculus with 6 samples.

Results

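The genes described here encode 10 secreted glycoproteins of the extracellular matrix, namely Postn, Tnc, Tgfbi, Thbs1, Thbs2, Sparc, Fn1, Fbln1, Edil3 and Mfge8, out of 18193 genes read in the series. They were chosen by name around Postn and Edil3, because in these same data the Postn level of the irradiated culture was below that of its control in experiment 1 and above it in experiments 2 and 3, and because Edil3 was higher in all 3. The differences between irradiated and control cultures are therefore given as a description, with no test. All 10 were measured, by 27 probe sets in all, and the brightest probe set stands for each gene. A further probe set that names Thbs1 beside another gene was not used.

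The cells, bought commercially, were mesenchymal stem cells of the mouse, which can form fat, bone and cartilage. In each of 3 independent experiments, 1 dish was exposed for 2 h to a continuous-wave laser at 2.52 THz (118.8 µm) and 1 control dish stood next to it unexposed, with both held at 26 to 27 °C. Every dish of either group had received rosiglitazone (1 µM), insulin (5 µg/ml), isobutylmethylxanthine (100 µM) and dexamethasone (1 µM) afresh 48 h before exposure, the usual cocktail for turning such cells into fat cells. RNA was taken directly after exposure, which gave 3 irradiated and 3 control arrays. The question of the design is which transcripts differ between an irradiated dish and the control of its own experiment.

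Median log2 values per array were 5.01 to 5.05. Of 11 measured stromal cell markers, 10 reached the level of the median gene (6.46), and Thy1, a surface marker of many stromal cells, was below it at 3.88. All 15 fat cell markers and all 17 macrophage markers measured reached it too, against 0 of 8 endothelial markers and 1 of 7 epithelial markers. The RNA came from whole dishes, so fewer cells of a type and less RNA per cell cannot be told apart. The control of experiment 3 stood apart in RNA quality: its 3' probe set exceeded the 5' one by 0.68 for beta-actin, where the other 5 arrays lay between 0.50 and 0.57, and by 0.11 for Gapdh, where they lay between -0.10 and -0.08.

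Matricellular proteins sit in the matrix without being its main building material, and tune how cells hold on to collagen and fibronectin, move and receive growth factors. Many of them signal through integrins, the receptors that tie the matrix to the actin skeleton, and many are switched on by TGF-beta in wounds and in matrix-producing stromal cells. When stromal cells turn into fat cells, their fibronectin-rich fibrous matrix is remodelled. Postn encodes periostin, which binds collagen, and Tgfbi encodes a relative built from the same FAS1 domains. Tnc encodes tenascin-C, a large protein of wounds and developing tissue. Thbs1 and Thbs2 encode thrombospondins, ligands of CD36 and CD47, of which the first activates latent TGF-beta. Sparc binds collagen, Fn1 (fibronectin) forms the fibrils to which cells attach, and Fbln1 (fibulin 1) binds fibronectin. Edil3 and Mfge8 encode a pair of related bridging proteins that hold integrins with an RGD motif and phosphatidylserine with discoidin domains.

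Of the 10 genes, 7 had at least 1 promoter window in RefSeq, with 10 windows in all, and Thbs1, Fn1 and Edil3 had no entry there. The windows run from 250 bases before to 50 after an annotated start (GRCm38.p6). TATATAA was searched on both strands as the core of the TATA box. These letters were in 2 of the 10 windows and in 3.24% of all 32851 windows, and those 2 belonged to Postn and Tnc, the members whose levels spread most over the 6 arrays. The 120 bases before these starts are shown for that reason, read 5′ to 3′ on the gene's strand, with TATATAA in capitals. It begins 28 bases before the start in Postn (chr3:54360987-54361106, plus strand) and 29 bases before it in Tnc (chr4:64046937-64047056, minus strand).
Postn: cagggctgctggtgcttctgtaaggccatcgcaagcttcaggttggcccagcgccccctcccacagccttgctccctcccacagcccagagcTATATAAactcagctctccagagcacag
Tnc: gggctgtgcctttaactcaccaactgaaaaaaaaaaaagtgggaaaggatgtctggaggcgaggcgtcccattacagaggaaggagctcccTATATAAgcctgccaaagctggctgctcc
Each of these genes has another annotated start, and the arrays do not tell which was used. The letters TGANTCA of AP-1 sites (7.81% of all windows), GGAATG of TEAD sites (14.7%) and the CArG box of SRF (1.63%) were in 0 of the 10 windows on either strand. CAGAC, the core of SMAD sites, was in 8 of 10 and in 49.6% of all windows. These are matches of letters only.

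Postn was steady in the irradiated dishes and uneven in the controls. Its irradiated level was 9.23, 9.06 and 9.22 in experiments 1 to 3, and its control level was 9.75, 8.23 and 8.17. Highest of the 6 arrays was thus the control from experiment 1, lowest were those from experiments 2 and 3, and the irradiated dishes lay between them, so the groups overlap. The irradiated-minus-control difference in log2 units was -0.52, 0.83 and 1.05, or 0.70-fold, 1.78-fold and 2.07-fold, with a mean of 0.45 ± 0.85 (SD, n = 3). The controls spanned 1.58 log2 units (2.99-fold) and the irradiated dishes 0.17 (1.13-fold), where the median gene spanned 0.20 and 0.18. The excess of the control range over the irradiated range, 1.41 log2 units, was the largest of all 18193 genes. Postn was picked for its signs in these same arrays, so this rank is a description and not a test. The excess rests on experiment 1: without it the controls spanned 0.06, the irradiated dishes 0.16, and the mean difference was 0.94, against 0.27 without experiment 2 and 0.16 without experiment 3. Postn has 1 probe set with a single symbol, so no other reading of it was available here.

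**Figure D1:**
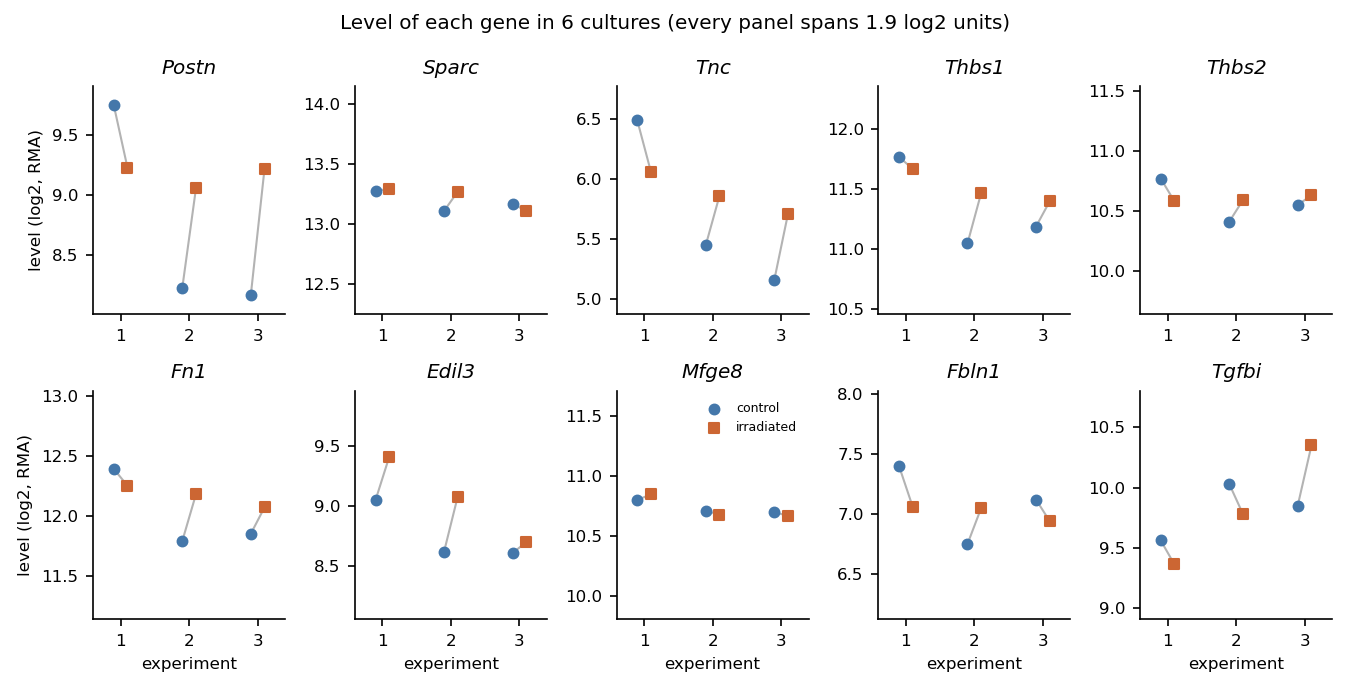
Level of each of the 10 genes (log2, RMA) in the control (circles) and irradiated (squares) dish of each experiment, joined by a line, with all panels drawn to the same height. For Postn the irradiated dishes lie between 9.06 and 9.23 while the controls run from 8.17 to 9.75, and Mfge8 is nearly level throughout.

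Tnc had the same layout at a lower level. Its control level was 6.49, 5.45 and 5.16 in experiments 1 to 3 and its irradiated level 6.06, 5.86 and 5.71. Again the first control was the highest array and the other controls were the lowest. The differences were -0.43, 0.41 and 0.55 log2 units (mean 0.18 ± 0.53, SD, n = 3), and the ranges were 1.33 among controls and 0.35 among irradiated dishes. Tnc is the member below the median gene level, at 5.79. Its other probe set, at a level of 2.57, gave -0.45, -0.08 and -0.15, and so shares the sign only in experiment 1.

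Thbs1 and Fn1 followed with smaller spans at high levels. Thbs1 stood at 11.77, 11.05 and 11.19 in the controls and at 11.67, 11.47 and 11.40 in the irradiated dishes. That is a span of 0.72 among controls against 0.27, with differences of -0.10, 0.42 and 0.21 log2 units (mean 0.18 ± 0.26, SD, n = 3). Its second probe set, at a level of 8.82, had the same signs, with -0.03, 0.56 and 0.46. Fn1 stood at 12.39, 11.79 and 11.85 in the controls and at 12.25, 12.18 and 12.07 in the irradiated dishes. Its differences were -0.14, 0.39 and 0.22 (mean 0.16 ± 0.27, SD, n = 3), and its second probe set, at 8.05, gave -0.01, 0.69 and 0.03. In both genes the first control was the highest array and the other controls were the lowest, so the groups overlap.

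Thbs2 was nearly level. It lay between 10.41 and 10.77 in the controls and between 10.58 and 10.63 in the irradiated dishes, with differences of -0.19, 0.18 and 0.08 log2 units. Its other probe sets, at similar levels, gave 0.03, 0.37 and 0.10, and 0.27, 0.31 and -0.20, so all 3 probe sets were higher in experiment 2, with mixed signs in experiments 1 and 3. Fbln1 lay between 6.75 and 7.40 in the controls and between 6.94 and 7.06 in the irradiated dishes, with differences of -0.34, 0.30 and -0.18 (mean -0.07 ± 0.33, SD, n = 3). Its second probe set, at 6.80, gave -0.16, 0.27 and 0.10, and the dimmest, at 5.55, gave 0.15, -0.28 and -0.17. Fbln1 too was highest in the control of experiment 1 and lowest in that of experiment 2.

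Edil3, for which the group was also picked, was higher in the irradiated dish of each experiment in its brightest probe set. Its level was 9.05, 8.62 and 8.61 in the controls and 9.41, 9.08 and 8.70 in the irradiated dishes, which gives differences of 0.36, 0.46 and 0.09 log2 units (mean 0.30 ± 0.19, SD, n = 3). The groups overlap, since the irradiated dish of experiment 3 lay below the control of experiment 1. Its 5 other probe sets did not share this: the second, at a level of 5.75, gave -0.30, 0.20 and 0.05, and the means of all 5 ran from -0.40 to 0.10. All 5 were below 0 in experiment 1, where the brightest was at 0.36. These 5 lie below the median gene level, between 2.20 and 5.75. The mean over all 6 probe sets was 0.02.

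Mfge8, the relative of Edil3, had the most even level of the 10. It read 10.80, 10.71 and 10.70 in the controls and 10.85, 10.68 and 10.67 in the irradiated dishes, with differences between -0.03 and 0.05 log2 units. Sparc, the brightest member, lay between 13.11 and 13.28 in the controls and between 13.11 and 13.29 in the irradiated dishes. Its differences were 0.01, 0.16 and -0.06 (mean 0.04 ± 0.11, SD, n = 3), and its second probe set, at 12.73, gave -0.05, 0.20 and -0.07.

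Tgfbi had its high array elsewhere. It stood at 9.56, 10.03 and 9.85 in the controls and at 9.36, 9.78 and 10.35 in the irradiated dishes. The irradiated dish of experiment 3 was the highest array and that of experiment 1 the lowest, so here the irradiated dishes spanned more, 0.99 log2 units against 0.47 among controls, as they did in Edil3, Mfge8 and, by 0.01, in Sparc. Its differences were -0.20, -0.25 and 0.50 (mean 0.02 ± 0.42, SD, n = 3). All 4 probe sets gave the same signs, and those in experiment 3 lay between 0.47 and 0.60. The mean level of the 17 macrophage markers was highest and lowest in the same arrays as Tgfbi. It was 11.09, 11.33 and 11.42 in the controls and 10.93, 11.39 and 11.53 in the irradiated dishes. Not every marker shared this, as Cd53 and Laptm5, for example, were highest in the control of experiment 3. None of the 17 was near 0, the lowest being Aif1 at 7.02. The part of macrophage markers in the Tgfbi values was not tested.

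**Figure D2:**
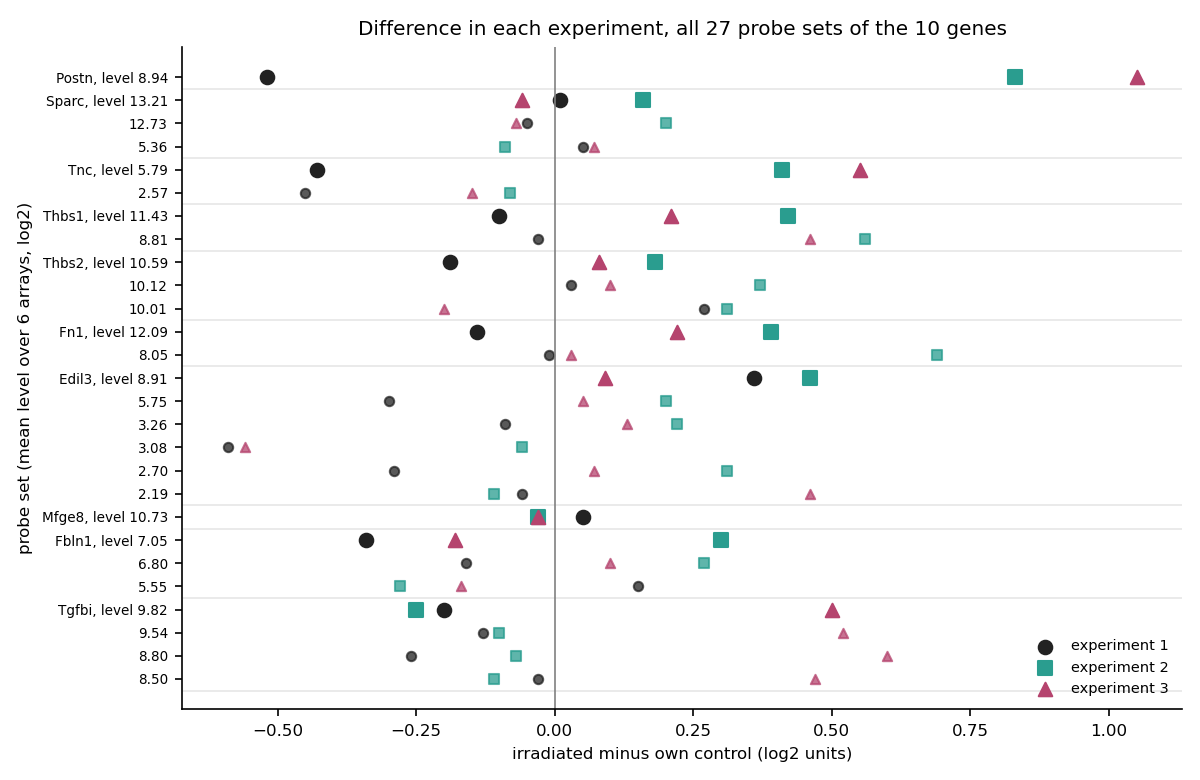
Irradiated minus own control (log2 units) in experiments 1 (circles), 2 (squares) and 3 (triangles) for all 27 probe sets of the 10 genes, with the mean level of each probe set on the vertical axis and larger symbols for the brightest of each gene. The 4 Tgfbi probe sets share their signs, whereas the dimmer Edil3 probe sets lie below 0 in experiment 1, where the brightest is at 0.36.

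Over the 10 genes, 3 were higher in the irradiated dish in experiment 1, 8 in experiment 2 and 7 in experiment 3. The median difference of the 10 was -0.17, 0.35 and 0.15 log2 units in these experiments, where the median of all genes was -0.03, -0.01 and 0.00. The median of the 10 mean differences was 0.10 (all genes, -0.01). Blocked by experiment, limma called 0 of 18193 genes (0%) for irradiated minus control after Benjamini-Hochberg adjustment, with 603 at an unadjusted p under 0.05, and so 0 of the 10. It called 0 of 45037 probe sets as well, with 1696 at an unadjusted p under 0.05. The rule that chose the genes used this contrast, and nothing is read from these counts. The layout of Postn, lower in experiment 1 and higher in 2 and 3, was shared by Tnc, Thbs1, Thbs2 and Fn1. With Postn that makes 5 of 10, against 14.3% of all genes. Postn was picked for these signs, so its own place among the 5 was fixed beforehand. Of the 10, Edil3 alone was higher in all 3 experiments, against 8.23% of all genes. Edil3 was picked for being so, and its place was fixed as well. Both shares are therefore a description and not a test. In 0 of the 10 were the 3 irradiated and 3 control levels free of overlap, which held for 8.27% of all genes. Without experiment 1, which leaves 2 dishes a group, 7 of the 10 did not overlap (Postn, Tnc, Thbs1, Thbs2, Fn1 and Edil3, higher in the irradiated dishes, and Mfge8, lower), against 34.0% of all genes. Without experiment 2 it was 1, Fbln1 (27.6%), and without experiment 3 also 1, Edil3 (30.1%). Postn and Edil3 were picked for being higher in experiments 2 and 3, so nothing is read from these counts. In Mfge8 the controls of experiments 2 and 3 stood at 10.71 and 10.70, and the irradiated dishes at 10.68 and 10.67.

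The controls spanned more than the irradiated dishes in 6 of the 10, namely Postn, Tnc, Thbs1, Thbs2, Fn1 and Fbln1, against 53.6% of all genes. Those 6 were also the ones that peaked in the first control, which was so for 21.1% of all genes. With Edil3 they were the 7 in which the control of experiment 2 or 3 was the lowest, which was so for 31.5% of all genes. Of the 10, 9 reached the median gene level. Among all genes that did, the first control was highest in 25.4%, against 5 of those 9 members. The control of experiment 2 or 3 was lowest in 34.5%, against 6 of the 9. The median control range of the 10 was 0.54 log2 units and their median irradiated range 0.18, where the medians of all genes were 0.20 and 0.18. Without experiment 1 the controls spanned more in 4 of the 10, against 51.3% of all genes. Experiment, group and the chosen contrast enter these ranges together, so they describe the arrays and are not a test.

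**Figure D3:**
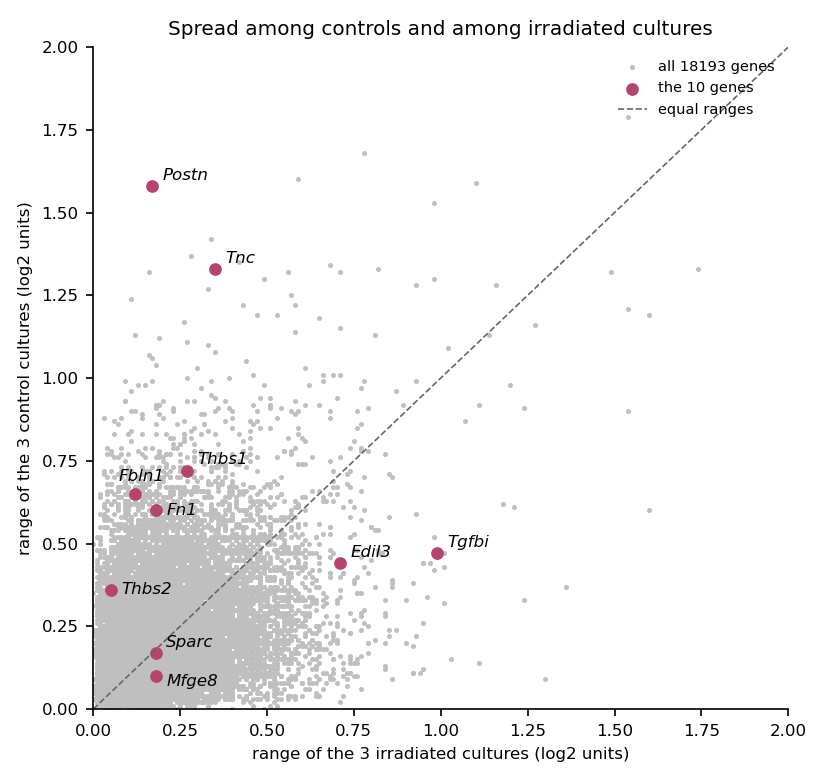
Range of the 3 control dishes against the range of the 3 irradiated dishes (log2 units) for all 18193 genes (grey) and the 10 genes (coloured), with the line of equal ranges dashed and 1 gene beyond the axes. Postn lies at 1.58 against 0.17, the largest excess of control over irradiated range, and Tgfbi, Edil3, Mfge8 and, by 0.01, Sparc lie on the other side of the line.

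Differences between the experiments themselves do not enter the contrast that chose the genes, since each experiment gave 1 dish to either group, and they could be tested. limma's moderated F test called 0 of 18193 genes (0%) after Benjamini-Hochberg adjustment, and 0 of the 10. At an unadjusted p under 0.05 it gave 994 genes (5.46%), and among the 10 it gave 4, namely Edil3, Tnc, Thbs1 and Tgfbi. Without experiment 1 the unadjusted p of these 4 in limma's F test ran from 0.080 (Tnc) to 0.744 (Thbs1). Without experiment 2 it ran from 0.0098 (Edil3) to 0.049 (Tnc), and without experiment 3 from 0.0090 (Tgfbi) to 0.070 (Tnc). Edil3 had experiment means of 9.23, 8.85 and 8.66 (adjusted p 0.906 in limma), which did not pass the test. Tnc stood at 6.28, 5.66 and 5.44, Thbs1 at 11.72, 11.26 and 11.30, and Tgfbi, in the other direction, at 9.46, 9.91 and 10.10, each at the same adjusted p of 0.906 in limma. Postn, at 9.49, 8.65 and 8.70, had an adjusted p of 0.917 in limma. The spread against which this test measures Postn holds its own uneven differences. The other 5 genes had limma adjusted p values from 0.917 to 1.00.

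Among genes no dimmer than the median and with an SD over the arrays of at least 0.1, the 5 most like Postn over the 6 arrays were Pcdh7, a protocadherin, Bcl2l2, which counters apoptosis, the centromere gene Cenpt, the Wnt receptor Fzd5 and Nav2. Their Pearson r with Postn ran from 0.98 to 1.00 (Spearman rho 0.81 to 0.99) over 6 arrays that share 3 experiments, and 3803 genes were ranked. They spanned less than Postn: Fzd5 stood at 8.73, 8.27 and 8.23 in the controls and 8.64, 8.55 and 8.54 in the irradiated dishes. Of the members, Fn1 came 31st at an r of 0.96, Thbs1 76th at 0.93 and Thbs2 217th at 0.86, while Tnc, too dim to be ranked, had an r of 0.94 and Tgfbi one of -0.34. The genes most like Edil3 were the transporter Abca5, Zfp507, Lrrn3, the large cadherin Fat4 and Izumo4, with an r from 0.97 to 0.99. Fat4 stood at 9.33, 8.91 and 8.96 in the controls and 9.47, 9.21 and 9.03 in the irradiated dishes. Postn had an r of 0.66 with Edil3 and Mfge8 one of 0.76.

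Among other matricellular genes, 22 of 24 listed had a probe set with 1 symbol, not Spp1 (osteopontin) and Efemp2. None of the 22 was called in limma, 16 had a mean above 0 and 6 below, and their median was 0.04 log2 units, where that of all genes was -0.01. Their extremes were Tnn, a further tenascin, at 0.36 and Smoc1, a calcium-binding relative of Sparc, at -0.28. Tnn stood at 6.73, 5.90 and 5.60 in the controls and at 6.46, 6.49 and 6.37 in the irradiated dishes, the layout seen for Postn. Ccn2 and Ccn1, secreted integrin ligands that respond to TGF-beta and YAP, did not share it. Ccn2 had differences of -0.08, 0.23 and -0.25, and Ccn1 of -0.01, 0.22 and -0.19. Ccn3 did not have the signs of Postn either, at 0.07, 0.31 and -0.36. Ccn4 had them, at -0.42, 0.27 and 0.31, and so did Ccn5, at -0.24, 0.59 and 0.05. In this list 6 of 22 genes had these signs, against 14.3% of all genes. The controls spanned more than the irradiated dishes in 20 of the 22, against 53.6% of all genes.

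The receptors of these proteins went both ways. All 15 listed were measured, 0 were called, 8 had a mean above 0 and 6 below, and the median was 0.00 log2 units, with Itgb1 (0.18) and Itga9 (-0.21) at the ends. Itgav, the subunit shared by receptors of periostin, Edil3 and Mfge8, had differences of 0.01, 0.16 and 0.13 in experiments 1 to 3. Itgb1 had 0.03, 0.30 and 0.21, Itgb5 had -0.18, 0.03 and -0.16, and Itga5, which with Itgb1 forms the fibronectin receptor, had -0.01, 0.20 and 0.11. Itgb3 and Itga8 had means of 0.08 and -0.12. The scavenger receptor Stab1, singled out after its values were seen, had differences of -0.32, 0.05 and 0.32, and its irradiated dishes spanned 0.96 log2 units. Cd47, a thrombospondin receptor, had -0.19, 0.11 and 0.06, and Cd36, another, which fat cells and macrophages also carry, had 0.19, -0.61 and 0.29. Fat cell markers, a list that holds Cd36, also had negative differences in experiment 2. There 0 of 15 were higher in the irradiated dish and their median difference was -0.61, against 0.04 and 0.01 in experiments 1 and 3. Their mean level in experiment 2 was 10.73 in the control, the highest of the 6 arrays, and 10.12 in the irradiated dish, the lowest.

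Collagens and the enzymes that process and crosslink them gave 15 measured genes of 17, with 10 above 0, 5 below and a median of 0.06 log2 units. None was called in limma. Lum (lumican, 0.38) and the crosslinking enzyme Tgm2 (-0.24) were the extremes. Col1a1, the chain of the main fibrillar collagen, stood at 10.27, 9.24 and 9.62 in the controls and at 10.14, 9.96 and 9.84 in the irradiated dishes. Its first control was again the highest array and its other controls the lowest. Lox, the collagen crosslinking oxidase, had differences of -0.10, 0.32 and -0.03, and Bmp1, the protease that trims procollagen, -0.08, 0.02 and 0.17.

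The TGF-beta axis, ligands, receptors and SMADs, held 16 measured genes. Its median was 0.01 log2 units, with 10 above 0, 6 below and 0 called, and its extremes were Tgif1 (0.09) and Tgfb1 (-0.06). Tgfb1 had differences of -0.18, -0.09 and 0.08 and the receptor Tgfbr2 of -0.13, 0.03 and 0.20.

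The signs of Postn were below 0 in experiment 1 and above 0 in experiments 2 and 3. The medians of 6 of the 11 other lists had them: receptors, collagen partners, the TGF-beta axis, macrophages, dividing cells, and smooth muscle and myofibroblasts, contractile cells that also make periostin. Of these medians, that of the receptors lay at -0.01 log2 units in experiment 1, where that of all genes was -0.03. Gene by gene this set of signs was found in 9 of 12 smooth muscle and myofibroblast markers, 9 of 11 dividing cell markers and 9 of 17 macrophage markers. It was found in 6 of 15 collagen partners, 4 of 16 genes of the TGF-beta axis and 3 of 15 receptors. Among the remaining lists it was found in 6 of 22 other matricellular genes and 2 of 8 endothelial markers. Stromal markers had it in 1 of 11, epithelial markers in 1 of 7 and fat cell markers in 0 of 15. The share of all genes was 14.3%. For smooth muscle and myofibroblast markers the median difference was -0.22, 0.41 and 0.25 log2 units in experiments 1 to 3, with 1, 12 and 9 of 12 genes higher. None of the 12 was called in limma. Acta2, smooth muscle actin, had -0.10, 0.42 and 0.36, and the actin-binding Tagln -0.30, 0.69 and 0.64, where the lowest of the list was Myh11, the smooth muscle myosin, with a mean of -0.07 and a level of 3.58. The mean level of the list ran from 8.29 to 8.88 over the controls and from 8.68 to 8.74 over the irradiated dishes. The controls spanned more in 11 of the 12, against 53.6% of all genes, and the first control was the highest array in 6. The macrophage and dividing cell markers shared the signs of Postn but not its order of arrays. The first control was highest in 0 of 17 macrophage markers and 1 of 11 dividing cell markers. The controls spanned more in 3 of the 17 and 3 of the 11. Markers of dividing cells had medians of -0.24, 0.06 and 0.51 with 0, 9 and 11 of 11 higher, and stromal markers 0.06, 0.08 and 0.00. The part of any of these in the Postn values was not tested.

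**Figure D4:**
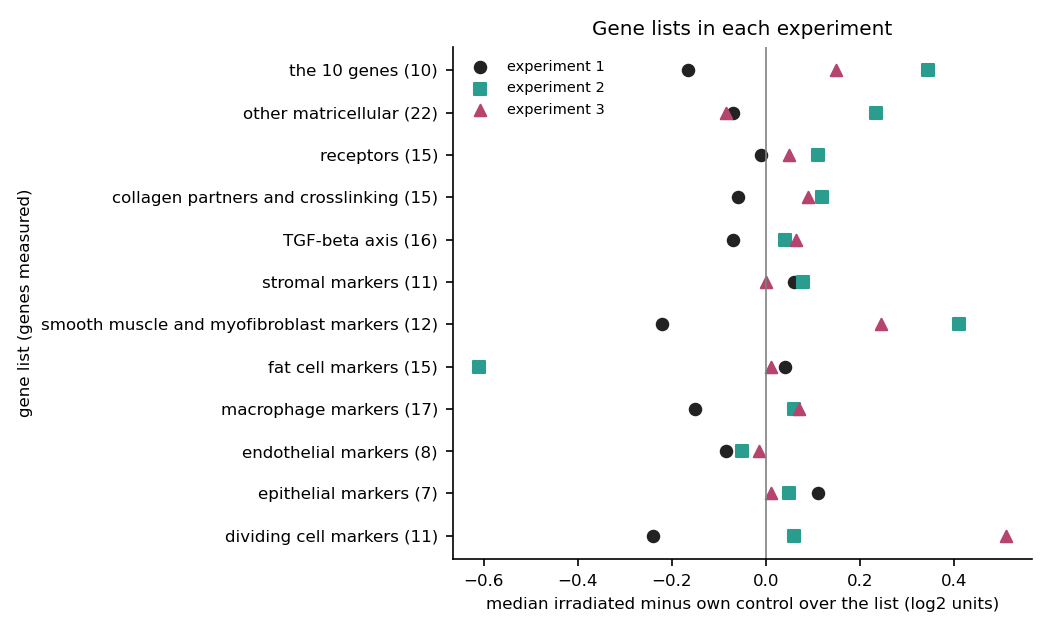
Median irradiated-minus-control difference (log2 units) over each gene list in experiments 1 (circles), 2 (squares) and 3 (triangles), with the number of genes measured. The 10 genes and 6 of the 11 other lists lie below 0 in experiment 1 and above 0 in experiments 2 and 3, while the fat cell markers lie at -0.61 in experiment 2.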

How the data were processed

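Expression was read on 6 Affymetrix mouse arrays, 1 per culture, from 200 ng of total RNA labelled with an oligo-dT primer, per the labels' protocols. The deposited values are log2 levels per probe set that the authors made with RMA, which corrects background, gives all arrays 1 distribution by quantile normalization and summarises probes. RMA, affy and limma are named, without versions, in the submitters' processing notes. The log base is not given in the sources used here. The values run from 1.73 to 14.53, the range of RMA log2 values, and were read as such. They carry 2 decimals. RMA tends to understate changes of dim probe sets, and a change shared by all transcripts cannot be seen. No scanner file, detection call or scan date was used here, so absence calls and array batches could not be examined. Arrays have no read depth, and their number limits the precision.

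Of 45101 probe sets, 64 array controls were left out. The platform annotation gave 1 symbol to 34945 of the remaining 45037, several to 932 and none to 9160, and 34741 matched a current gene table (GRCm38.p6), with 0 symbols changed. Each of 18193 genes was read from its brightest probe set by 6-array mean.

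The fit was limma (version 3.58.1, R 4.3.3; lmFit and eBayes) over all genes, with group and experiment number as terms, and Benjamini-Hochberg adjusted p under 0.05 as the threshold. Pairing follows the series' design text. After subtracting group means, the control and irradiated arrays of 1 experiment correlated at 0.09, -0.07 and -0.03 in experiments 1 to 3. Only in experiment 1 did both arrays correlate most with the partner of their own number. The pairing of experiments 2 and 3 therefore rests on the design text and the titles alone. Residual degrees of freedom were 2, and those of the eBayes prior 4.66. Differences between experiments were tested with limma's moderated F in the same fit. The scripts were tested on simulated data. The 10 genes, the gene lists and the tests were chosen with earlier results of these data known. Named in any case were the 10 genes, partner genes chosen for their roles, the extremes of each list, and the 5 genes most like Postn and the 5 most like Edil3 by Pearson r over the 6 arrays, among genes no dimmer than the median with an SD over the arrays of at least 0.1. Promoter windows and their motifs came from RefSeq (GRCm38.p6).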

Additional observations from a re-analysis of the deposited data

How the results depend on the processing

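For irradiated minus control limma called 0 genes and 0 probe sets under each alternative below, and with no replicate block for the pairing also 0 and 0 (649 genes and 1841 probe sets at an unadjusted p under 0.05). The random block, a trended prior, the median-level filter (genes only), averaged probe sets (genes only), median-centred arrays and leaving out each experiment likewise gave 0. Between experiments limma's F test called 0 genes, but 2 with a trended prior (Lyve1 and Saa3) and 1 each (Lyve1) with the median-level filter, averaged probe sets or median-centred arrays, genes named after their values were seen. The cause was not tested. Without experiments 1, 2 or 3 it called 0. None of the 10 genes was called between experiments under these settings, in 69 combinations of gene and setting, with a lowest adjusted p of 0.604 in limma. The median of the 10 mean differences stayed above 0, between 0.05 and 0.20 log2 units. Single members moved by less than their SD over experiments in 56 of 58 combinations of gene and setting. The others were Edil3, at 0.02 with averaged probe sets and -0.02 with its second probe set. Leaving out 1 of 3 experiments cannot shift a mean by that SD, and averaging cannot change Postn and Mfge8, with 1 probe set each. Those outcomes were fixed beforehand and do not measure stability. Postn went from 0.45 to 0.94 without experiment 1 and to 0.16 without experiment 3. Signs changed in 12 of the 58. The signs of Postn, for which it was picked, were counted under 2 alternatives added after the data were seen. With averaged probe sets 5 of 10 genes had them, Postn included (14.3% of all genes), with Edil3 in the place of Thbs2. With centred arrays it was also 5 of 10 (14.6%). The controls spanned more in 7 of 10 with averaged probe sets (54.7% of all genes) or centred arrays (53.7%), and in 4, 6 and 9 without experiments 1, 2 and 3 (51.3%, 50.2% and 53.4%). These settings for range, like those for overlap, were also added after the data were seen. With 3 pairs, differences such as those of Postn cannot be told from the spread between experiments.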

Other observations

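All 18193 genes were ordered by how far the range of the 3 controls exceeded that of the 3 irradiated dishes, an order set after the data were seen. Postn came first, and the 11 next to it were Malat1, Cnn1, 1110017D15Rik, Serpinb2, Sertad4, Ibsp, Tnn, Tnc, Hpgd, Cthrc1 and Olr1. Cnn1, the smooth muscle protein calponin, had control levels of 7.25, 5.93 and 6.39 and irradiated levels of 6.67, 6.72 and 6.83 in experiments 1 to 3. Ibsp, bone sialoprotein, stood at 9.41, 7.99 and 7.81 in the controls and at 9.25, 8.97 and 8.66 in the irradiated dishes. Serpinb2, a protease inhibitor, stood at 8.50, 7.13 and 7.73 against 8.43, 8.15 and 8.15. The nuclear RNA Malat1 had another layout, at 9.99, 8.55 and 10.71 in the controls and 9.96, 10.71 and 9.84 in the irradiated dishes, and 1110017D15Rik was lowest in the first control, at 3.50.

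At the other end, where the irradiated dishes spanned most beyond the controls, stood Mmp8, Matn2, Cxcl2, Gm36365, F13a1 and Fpr2. Mmp8, a collagenase, had control levels of 6.12, 6.15 and 6.21 and irradiated levels of 5.76, 6.05 and 7.06. The chemokine gene Cxcl2 stood at 6.31, 6.28 and 6.65 against 5.76, 6.81 and 7.12. Of these 6 genes, 5 were lowest in the irradiated dish of experiment 1 and highest in that of experiment 3, as Tgfbi was. Matn2, which encodes a matrilin, was the reverse, at 8.52, 7.67 and 6.92 in the irradiated dishes. These are single arrays and no test was made.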
